A study of Mus musculus with 12 samples.

Results

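The genes described here include those for proteins that dock, prime and fuse neurotransmitter vesicles. They were chosen by symbol, as the synaptotagmins (Syt), syntaxins (Stx), syntaxin-binding proteins (Stxbp), vesicle-associated membrane proteins (Vamp), Snap proteins, synapsins (Syn), vesicle glycoproteins (Sv2), complexins (Cplx) and Rims proteins whose symbol goes on with a digit or ends in a, b or c. The rule took 64 of the 17564 genes measured and used no expression value. Among the 64 are 14 genes for fusion proteins of internal membranes, 3 that share only a name stem and 1 pseudogene. RNA-seq came from the ventral hippocampus (vHPC) of male mice on a C57BL/6 background, either WT or heterozygous for the BDNF Val66Met knock-in allele (BDNF het-Met), in every cell of the animal. Mice drank corticosterone (CORT), the chief adrenal stress steroid of rodents, at 25 mg/l in 1% ethanol for 6 weeks from 2 months of age. The controls received the 1% ethanol vehicle (VEH), so all 4 groups were given ethanol. Each group had 3 libraries, and each library held the pooled RNA of 2 animals.

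The question was how CORT altered expression of these genes in each genotype. The values are log2 fold changes of CORT over VEH with the standard error (SE) of the authors' limma-voom fit, a linear model on log2 CPM (read counts scaled to library size). No value per library was analysed here, so neither the overlap of groups nor the depth of a library can be given. The fit listed 7 residual degrees of freedom where 12 libraries in 4 groups would leave 8. The SE in WT mice was a median 1.12 times that in BDNF het-Met mice (quartiles 1.12 and 1.14), and 5 WT libraries beside 6 BDNF het-Met libraries would give a ratio of 1.12. Whether a WT library is missing from the fit was not tested, and which one it would be is unknown.

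A synaptic vesicle fuses when a SNARE protein on its membrane (a VAMP, also called synaptobrevin) zips together with a syntaxin and a SNAP-25 family protein of the plasma membrane. Synaptotagmin senses the calcium that enters with an action potential, complexin clamps and primes the partly zipped complex, and syntaxin-binding proteins hold and guide the syntaxin. RIM proteins tether vesicles to calcium channels at the active zone, synapsins hold the reserve pool of vesicles, and SV2 proteins are glycoproteins of the vesicle membrane. Ventral hippocampal pyramidal and granule neurons are packed with such synapses, and this region of the hippocampus carries signals tied to stress and anxiety.

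The genes of release differed widely in level. Levels are compared between genes only per kb of exon. On that scale Cplx2 (8.69 log2 CPM per kb), Snap25 (8.66), Vamp2 (8.29), Cplx1 (8.10), Syt1 (7.94), Syn1 (7.72) and Syt11 (7.44) led. Within most families 1 or 2 neuronal members stood far above the rest: Syn3, the synapsin of developing neurons, lay at -0.63 log2 CPM per kb beside Syn2 at 7.07, and Cplx3, known from retinal ribbon synapses, at 0.82. The lowest members were Sync (-2.24), Syt15 (-1.95) and Vamp5 (-0.79). The error of these levels was not given in the tables, so neighbours in this order were not tested.

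**Figure D1:**
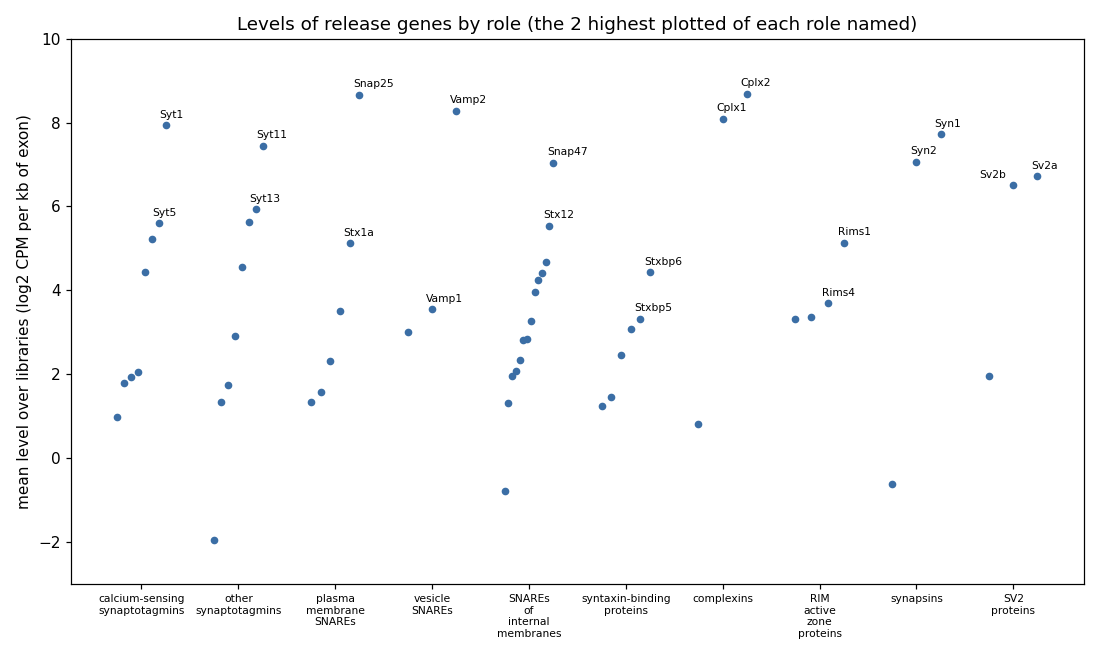
Mean level over the libraries of the fit (log2 CPM per kb of exon) by role in vesicle release, 1 point per gene, with no error available. Cplx2 (8.69), Snap25 (8.66) and Vamp2 (8.29) stand at the top, while Syt15 lies at -1.95 and Syn3 at -0.63.

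The CORT effects were small for most of the 64 genes. In WT mice the log2 fold change lay within 0.1 of 0 for 50 of 64 genes and in BDNF het-Met mice for 41 of 64. The 95% interval stayed inside a 1.3-fold change in either direction for 46 genes in WT mice and 48 in the BDNF het-Met mice. The median log2 fold change of the 64 genes was 0.0069 in WT and -0.0012 in the BDNF het-Met mice, beside -0.0026 and -0.0061 for all genes. With the median SE of these genes a log2 fold change of 0.17 in WT or 0.15 in BDNF het-Met mice gives an uncorrected p of 0.05.

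In WT mice 1 of 64 genes (1.56%) had an uncorrected p below 0.05 with limma, against 3.83% of all genes. It was higher under CORT, against 2.25% of all genes higher by that rule, and 0 of 64 were lower, against 1.57%. In BDNF het-Met mice 6 of 64 (9.38%) had an uncorrected p below 0.05, against 13.2% of all genes. Of these, 4 were higher (6.25%, against 6.55% of all genes) and 2 lower (3.12%, against 6.64%). DEGs, which also need a fold change above 1.3, numbered 0 in WT mice (against 1.25% of all genes) and 2 in BDNF het-Met mice (3.12%, against 3.24%). Each of these shares of the 64 lay near or below that of all genes. The 64 include 14 SNAREs of internal membranes, 3 genes that share only a name stem and 1 pseudogene, with 0 calls among them. Without those the counts of 1 and 6 were unchanged, so the shares over the remaining genes are higher. The higher shares were not set against all genes. The role groups described below are small parts of the 64, and their counts were not tested against these shares. After Benjamini-Hochberg adjustment over all genes, 0 of 64 passed 0.05 in either genotype with limma, as did 0.0% of all genes in WT and 0.0% in the BDNF het-Met mice. The smallest adjusted p of the 64 was 0.999 in WT and 0.243 in the BDNF het-Met mice, so no change passed correction and calls below rest on the uncorrected p. An uncorrected p between 0.05 and 0.1 was found for 2 genes in WT mice (Sv2a and Syna) and 7 in the other genotype (Syt1, Syt5, Vamp1, Vamp3, Vamp4, Vamp7 and Rims3).

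**Figure D2:**
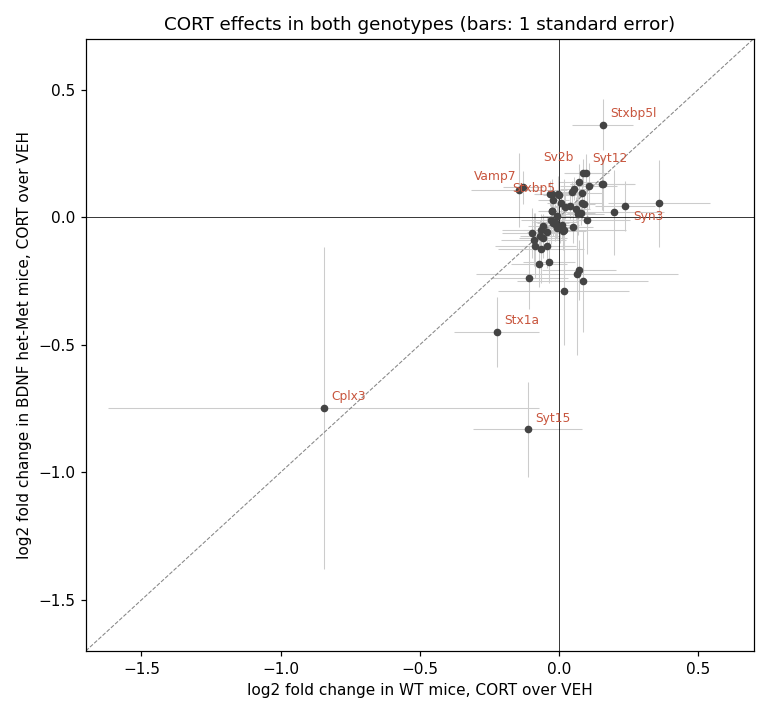
CORT log2 fold change in WT mice (x axis) and BDNF het-Met mice (y axis) for 62 of the 64 genes, with bars of 1 SE and a dashed line of equal effects. Most genes crowd around 0, Stx1a and Syt15 lie low in BDNF het-Met mice, Stxbp5l lies high, and Cplx3 has the widest bars (SE 0.77 and 0.63).

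Among the SNAREs of the plasma membrane, Stx1a was lower under CORT in BDNF het-Met mice, and Snap25 passed no threshold. Stx1a encodes syntaxin 1A, the syntaxin of the neuronal fusion complex, and lies on GRCm38 chromosome 5, 135023482 to 135051100, plus strand. Its log2 fold change in BDNF het-Met mice was -0.45 (SE 0.14, uncorrected p = 0.00714 in the authors' table, adjusted p = 0.267 by limma, 95% interval -0.75 to -0.15), a 1.37-fold lower level that made it a DEG. In WT mice it was -0.22 (SE 0.15). The difference between genotypes was -0.23 (SE 0.20, 95% interval -0.68 to 0.22), so it was not shown to differ between them. Since this is bulk tissue, fewer cells of a type and less RNA per cell cannot be told apart. Snap25, which gives the complex its other plasma membrane helices, had -0.02 in WT (SE 0.06) and 0.07 in BDNF het-Met mice (SE 0.05, adjusted p = 0.592 by limma). The widely expressed Stx2, Stx3, Stx4a and Snap23 ran from -0.07 to 0.06 in WT and from -0.11 to 0.03 in BDNF het-Met mice, and none had a p below 0.05. Of the 7 genes of this role Stx1a alone was called, in BDNF het-Met mice.

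The vesicle SNAREs did not pass the threshold in either genotype (0 of 3). Vamp2, the synaptobrevin of most forebrain synapses, had log2 fold changes of 0.08 in WT (SE 0.05) and 0.02 in BDNF het-Met mice (SE 0.04, adjusted p = 0.908 by limma). Vamp1, its close paralog, had 0.07 (SE 0.08) and 0.14 (SE 0.07, adjusted p = 0.406 by limma). Vamp3, cellubrevin of recycling endosomes and glia, had -0.07 and -0.18 (SE 0.10 and 0.09). Vamp1 and Vamp3 thus lay on opposite sides of 0 in both genotypes.

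Among the synaptotagmins that sense calcium, 0 of 8 had a p below 0.05 in either genotype. Syt1, the sensor of fast synchronous release, had log2 fold changes of 0.05 in WT (SE 0.05) and 0.10 in BDNF het-Met mice (SE 0.05, adjusted p = 0.401 by limma). Syt5 had -0.04 (SE 0.09) and -0.18 (SE 0.08, adjusted p = 0.401 by limma). Syt7, the slower sensor of asynchronous release and facilitation, had 0.02 and -0.05, and Syt3 had 0.08 and 0.10. Syt2, the fast sensor of brainstem and some inhibitory synapses, had 0.16 and 0.13. The levels of Syt6, Syt9 and Syt10 were 0.98, 1.94 and 2.05 log2 CPM per kb, beside 1.79 for Syt2. Syt6, Syt9 and Syt10 had 0.07, 0.09 and -0.14 in WT and -0.21, -0.25 and 0.11 in BDNF het-Met mice, with SEs from 0.12 to 0.23. All 3 pointed in opposite directions in the genotypes, and none of these differences had a p below 0.05.

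**Figure D3:**
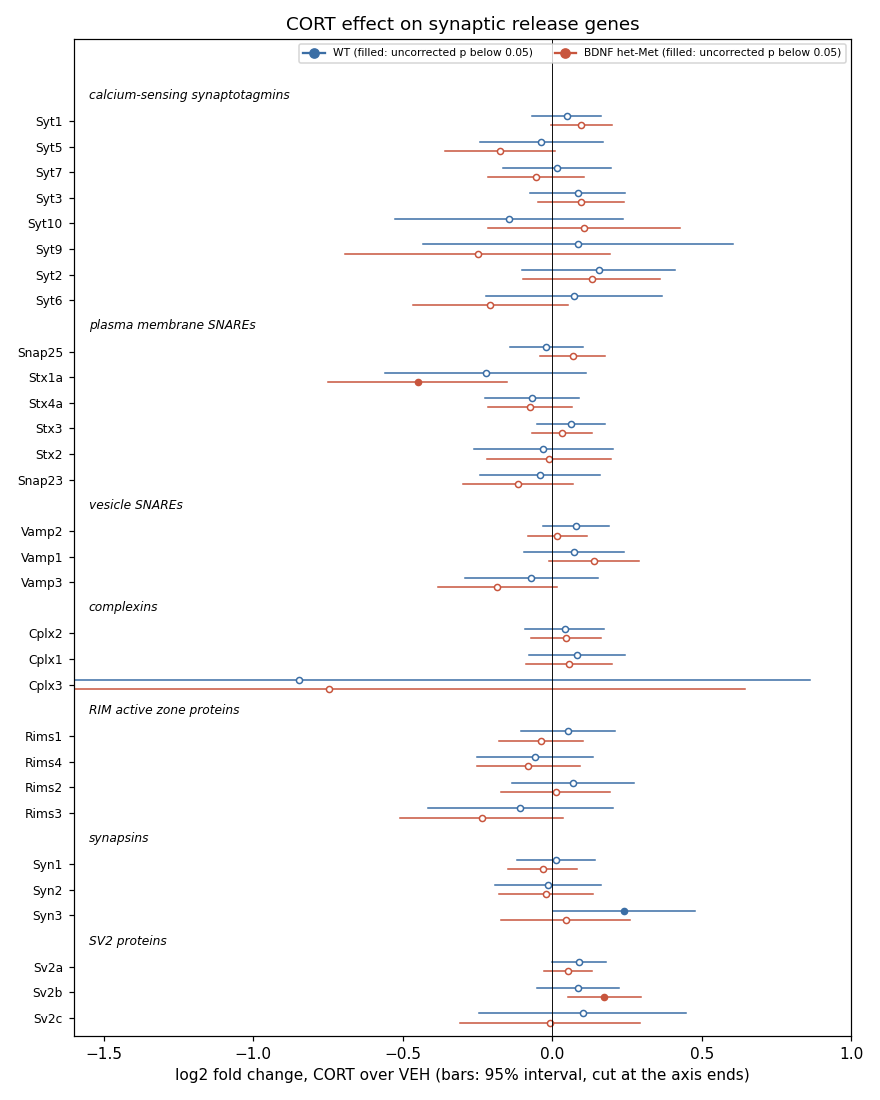
CORT log2 fold change (x axis) with its 95% interval for genes of synaptic release, by role, in WT (blue) and BDNF het-Met mice (red), with filled points for an uncorrected p below 0.05. Stx1a and Sv2b are filled in BDNF het-Met mice and Syn3 in WT mice, and the intervals of Snap25, Vamp2, Syt1 and Cplx2 are narrow and cross 0.

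The other synaptotagmins, which bind calcium weakly or not at all, held 2 of the 6 calls in BDNF het-Met mice. Syt15, a synaptotagmin whose C2 domains do not bind calcium, lies on GRCm38 chromosome 14, 34219595 to 34230420, plus strand. Its log2 fold change in BDNF het-Met mice was -0.83 (SE 0.19, uncorrected p = 0.00100 in the authors' table, adjusted p = 0.243 by limma, 95% interval -1.24 to -0.42), a 1.78-fold lower level and the second DEG. In WT mice it was -0.11 (SE 0.20). Its level was -1.95 log2 CPM per kb, the lowest but for Sync. Syt12, a vesicle protein that does not bind calcium (chromosome 19, 4445908 to 4477447, minus strand), was higher in BDNF het-Met mice by 0.17 (SE 0.07, uncorrected p = 0.0363 in the authors' table, adjusted p = 0.351 by limma), with 0.10 in WT (SE 0.08). The gene A930001C03Rik on the opposite strand overlaps 17.2% of the exon bases of Syt12, and the use of strand in counting is not given in the sources used here, so its reads cannot be told apart. Syt11, an abundant regulator of vesicle trafficking, had -0.01 (SE 0.05) and -0.04 (SE 0.04, adjusted p = 0.724 by limma), and Syt13 had -0.02 (SE 0.05) and 0.02 (SE 0.04, adjusted p = 0.860 by limma). Syt4, Syt14, Syt16 and Syt17 ran from -0.09 to 0.16 in WT and from -0.09 to 0.13 in BDNF het-Met mice, with no p below 0.05.

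Of 7 syntaxin-binding proteins, 2 were higher in BDNF het-Met mice, where 6.55% of all genes were. With 7 genes, this count was not tested as a trait of the family. The 2 are the paralogs Stxbp5 and Stxbp5l. They encode tomosyn and tomosyn-2, which bind syntaxin in the place of the vesicle SNARE and restrain release. Stxbp5l (chromosome 16, 37114942 to 37384962, minus strand) had a log2 fold change of 0.36 in BDNF het-Met mice (SE 0.10, uncorrected p = 0.00404 in the authors' table, adjusted p = 0.264 by limma, 95% interval 0.14 to 0.58), a 1.29-fold higher level just under the DEG limit. In WT mice it had 0.16 (SE 0.11), and the difference between genotypes was 0.21 (SE 0.15, 95% interval -0.12 to 0.53). Stxbp5 (chromosome 10, 9755547 to 9901079, minus strand) had 0.11 in BDNF het-Met mice (SE 0.04, uncorrected p = 0.0283 in the authors' table, adjusted p = 0.330 by limma), a 1.08-fold higher level, and 0.05 in WT (SE 0.05). The Stxbp5 call was lost after centring on genes of like expression or of like expression and exon length, the latter an alternative chosen after seeing the data. Stxbp6, or amisyn, had log2 fold changes of -0.09 (SE 0.11) and -0.06 (SE 0.10, adjusted p = 0.830 by limma). Stxbp2, Stxbp3 and Stxbp4 ran from -0.08 to 0.11 in WT and from -0.12 to 0.12 in BDNF het-Met mice. Stxbp3 shares 757 bases at 98.9% identity with the pseudogene Stxbp3-ps (0.20 and 0.02), so the split of reads between them is uncertain.

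**Figure D4:**
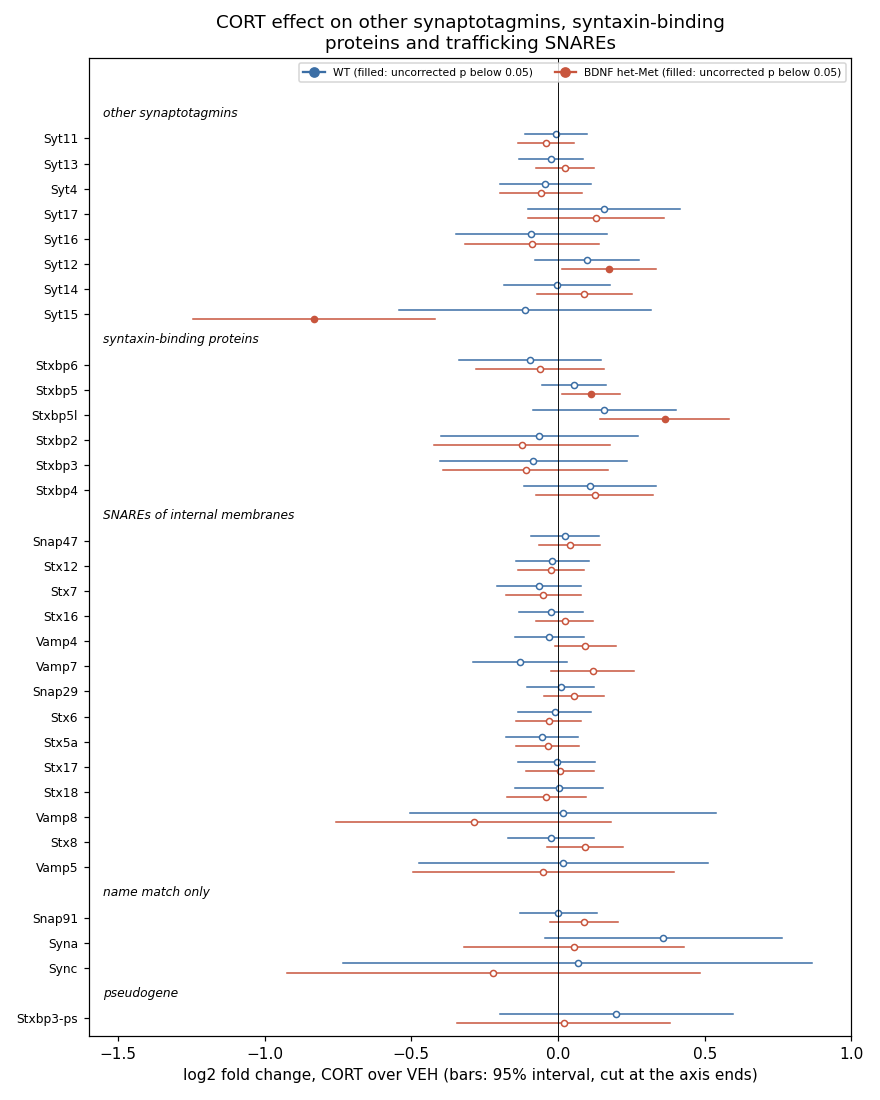
CORT log2 fold change (x axis) with its 95% interval for the other synaptotagmins, the syntaxin-binding proteins, the SNAREs of internal membranes and genes that share only a name stem or are pseudogenes, in WT (blue) and BDNF het-Met mice (red), filled where the uncorrected p is below 0.05. Syt15 lies far to the left in BDNF het-Met mice (-0.83) and Stxbp5l to the right (0.36), while most internal SNAREs sit near 0, apart from Vamp8 (-0.29 in BDNF het-Met mice) and Vamp7 (-0.13 and 0.12).

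Of the 3 SV2 genes 1 was called, in BDNF het-Met mice, and it was higher under CORT. Sv2b, a glycoprotein of excitatory terminals (chromosome 7, 75114894 to 75309262, minus strand), had a log2 fold change of 0.17 in BDNF het-Met mice (SE 0.06, uncorrected p = 0.00949 in the authors' table, adjusted p = 0.275 by limma, 95% interval 0.05 to 0.30), a 1.13-fold higher level, and 0.09 in WT (SE 0.06). After centring on expression and exon length its uncorrected p in BDNF het-Met mice rose above 0.05. Sv2a, the binding site of the antiepileptic levetiracetam, had 0.09 in WT (SE 0.04) and 0.05 in BDNF het-Met mice (SE 0.04, adjusted p = 0.570 by limma). Sv2c, the paralog of the basal ganglia, had 0.10 and -0.01 with wider SEs of 0.16 and 0.14.

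Syn3 was the single gene of the 64 called in WT mice. It had a log2 fold change of 0.24 (SE 0.11, uncorrected p = 0.0484 in the authors' table, 95% interval 0.002 to 0.48), and 0.04 in BDNF het-Met mice (SE 0.10, adjusted p = 0.888 by limma), with a difference of -0.19 (SE 0.15, 95% interval -0.52 to 0.13). The gene (chromosome 10, 86055125 to 86498896, minus strand) holds Timp3 on its opposite strand, which overlaps 14.1% of its exon bases. Timp3 itself had a log2 fold change of 0.03 in WT (SE 0.17), and the reads of the pair cannot be told apart without strand. With the ordinary SE, or after centring on expression and exon length, the uncorrected p of Syn3 was above 0.05, and Sv2a became the single gene called in WT mice in its place. Syn1 and Syn2, the main synapsins of adult terminals, had 0.01 (SE 0.06) and -0.01 (SE 0.08) in WT, and -0.03 (SE 0.05, adjusted p = 0.839) and -0.02 (SE 0.07, adjusted p = 0.935 by limma) in BDNF het-Met mice.

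Complexins and RIM proteins had 0 calls among 3 and 4 genes. Cplx1 had log2 fold changes of 0.08 (SE 0.07) and 0.06 (SE 0.07, adjusted p = 0.749), and Cplx2 had 0.04 (SE 0.06) and 0.05 (SE 0.05, adjusted p = 0.755 by limma). Cplx3 had -0.85 in WT (SE 0.77) and -0.75 in BDNF het-Met mice (SE 0.63), the lowest WT value and the widest errors of the 64. Rims1, the RIM of most synapses, had 0.05 (SE 0.07) and -0.04 (SE 0.06, adjusted p = 0.846 by limma), and Rims2 had 0.07 and 0.01. The short forms Rims3 and Rims4, which lack the domains that reach the vesicle, had -0.11 (SE 0.14) and -0.06 (SE 0.09) in WT and -0.24 (SE 0.12, adjusted p = 0.446) and -0.08 (SE 0.08, adjusted p = 0.698 by limma) in BDNF het-Met mice.

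SNAREs of internal membranes carry cargo between the Golgi, endosomes, lysosomes and autophagosomes, and 0 of 14 had a p below 0.05 in either genotype. Snap47, the most abundant per kb, had 0.02 (SE 0.05) and 0.04 (SE 0.05, adjusted p = 0.759 by limma), and the endosomal Stx12 had -0.02 in both genotypes (SE 0.06 and 0.05, adjusted p = 0.882 by limma in BDNF het-Met mice). Their WT values ran from -0.13 to 0.02. Stx5a of the Golgi, Stx6 and Stx16 of the trans-Golgi network, Stx7 and Stx8 of late endosomes, Stx17 of autophagosomes, Stx18 of the endoplasmic reticulum, and Snap29 of autophagosome fusion lay between -0.06 and 0.01 in WT and between -0.05 and 0.09 in BDNF het-Met mice. Vamp4 had -0.03 and 0.09 (SE 0.05 in each). Vamp8 and Vamp5 (1.95 and -0.79 log2 CPM per kb) had 0.02 each in WT and -0.29 and -0.05 in BDNF het-Met mice, with SEs from 0.20 to 0.24. Vamp7, the SNARE of neurite outgrowth that is annotated on the unplaced scaffold GL456233.1, had -0.13 in WT (SE 0.07) and 0.12 in BDNF het-Met mice (SE 0.06, adjusted p = 0.460 by limma).

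The rule also took genes that share only a name stem. Snap91 encodes the clathrin adaptor AP180 and had 0.00 and 0.09. Sync encodes the muscle protein syncoilin and had 0.07 and -0.22. Syna, a syncytin of retroviral origin, had 0.36 in WT (SE 0.18) and 0.05 in BDNF het-Met mice. None of these 3 passed the threshold.

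Sequence upstream of the annotated start is shown for 4 genes called in BDNF het-Met mice, the DEGs Stx1a and Syt15 beside Stxbp5l and Sv2b, which were higher. RefSeq promoters of GRCm38.p6 (250 bases before to 50 after a start) were found for 48 of 64 genes, in 61 windows. They were searched on both strands for ACANNNTGT, the palindromic core of the element that the glucocorticoid receptor binds. It was in 7 of the 61 windows (11.5%), those of Rims3, Stx17, Stx2, Sv2b, Syt1, Syt11 and Syt2, against 6.85% of all 32851 promoters, and this is a description of letters. Of the genes with an uncorrected p below 0.05 in BDNF het-Met mice and a promoter in the table (Stx1a, Sv2b, Stxbp5, Syt15 and Stxbp5l), Sv2b alone held it, 81 bases before 1 of its 4 starts. The last 100 bases before the start follow, 5′ to 3′, with the match in capitals. The Sv2b window is chr7:75220020-75220119 (minus strand, 35% G and C), and the others are chr5:135023382-135023481 for Stx1a (plus strand, 68%), chr14:34219946-34220045 for Syt15 (plus strand, 79%) and chr16:37384959-37385058 for Stxbp5l (minus strand, 79%).
Sv2b: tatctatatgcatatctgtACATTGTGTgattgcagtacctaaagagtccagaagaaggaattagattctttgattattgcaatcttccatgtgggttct
Stx1a: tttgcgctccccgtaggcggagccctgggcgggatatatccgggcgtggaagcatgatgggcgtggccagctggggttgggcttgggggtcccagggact
Syt15: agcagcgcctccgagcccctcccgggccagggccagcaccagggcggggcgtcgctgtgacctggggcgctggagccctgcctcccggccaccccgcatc
Stxbp5l: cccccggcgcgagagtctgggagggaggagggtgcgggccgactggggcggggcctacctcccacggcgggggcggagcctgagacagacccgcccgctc

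Averaged over genotypes, 7 of 64 genes (10.9%) had a p below 0.05, against 13.3% of all genes, and 0 of 64 passed an adjusted p of 0.05, against 0.074% of all genes. Those that were lower were Stx1a (-0.34, SE 0.10, adjusted p = 0.231) and Syt15 (-0.47, SE 0.14, adjusted p = 0.216). Those that were higher were Stxbp5l (0.26, SE 0.07, adjusted p = 0.216), Syt12 (0.14, SE 0.05, adjusted p = 0.323), Sv2b (0.13, SE 0.04, adjusted p = 0.25), Stxbp5 (0.08, SE 0.03, adjusted p = 0.328) and Sv2a (0.07, SE 0.03, adjusted p = 0.309), each adjusted p from the limma values of both genotypes. The smallest adjusted p was 0.216. The direction was the same in both genotypes for 44 of 64 genes (68.8%), against 62.5% of all genes. Across the 64 genes, which are not independent replicates, the WT and BDNF het-Met effects had a Pearson r of 0.63 and a Spearman rho of 0.51, and without Cplx3 an r of 0.45. Over all genes r was 0.30 and rho 0.33, and over protein-coding genes above 3 log2 CPM r was 0.52 and rho 0.47.

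The difference between genotypes had a p below 0.05 for 2 of 64 genes (3.12%), against 2.41% of all genes, and 0 passed an adjusted p of 0.05, as did 0.0% of all genes. Syt15 was lower under CORT by more in BDNF het-Met than in WT mice, with a difference of -0.72 (SE 0.27, 95% interval -1.31 to -0.12). Vamp7 differed by 0.25 (SE 0.10, 95% interval 0.03 to 0.46), and its 2 effects had opposite signs. Both had an adjusted p of 0.9999 from the limma values.

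The joint F of the fit was taken to hold 3 contrasts, both CORT effects and 1 between genotypes, which its label does not state. On that reading, 3 times F less the squared t of both CORT effects leaves a remainder, called the genotype statistic here. It gives no direction and no p. Outside the 64 genes it fell below 0 for Npy (-0.018), so the split is not exact. Among the 64 genes it was highest for Stxbp5l (6.72, the 98.4th percentile of all genes), Stx6 (5.70, 97.7th), Snap23 (4.09) and Syt15 (3.88, 94.5th). Among the genes on chromosome 2, which carries Bdnf and thus the knock-in, Snap23 lay 10.9 Mb from Bdnf, and Syt13, Snap25, Rims4 and Stx16 had statistics from 0.042 to 0.45. Whether these values reflect a difference between genotypes was not tested, and no direction can be read from the statistic.

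Other genes of vesicle release, 50 in a list of docking, priming, recycling and vesicle membrane proteins, had 0 p below 0.05 in WT mice and 9 in the BDNF het-Met mice, which is 18% of the list against 13.2% of all genes. Of the 9, 7 were higher (14%, against 6.55% of all genes) and 2 lower (4%, against 6.64%). The higher ones included proteins of the active zone and of priming, Erc2 (0.21, SE 0.07), Ppfia2 (0.25, SE 0.08), Erc1 (0.13, SE 0.05), Cadps (0.15, SE 0.06) and Rab3c (0.15, SE 0.05), and of vesicle recycling, Synj1 (0.20, SE 0.06) and Itsn1 (0.11, SE 0.04). Doc2a, a calcium-binding protein of vesicle release, was lower (-0.45, SE 0.20), as was Sncb, beta-synuclein (-0.14, SE 0.06). The higher genes have from 8085 (Synj1) to 23425 (Itsn1) exon bases, and Doc2a and Sncb have 2803 and 2145. After centring on genes of like expression 4 were higher (8%) and 2 lower (4%). After centring on expression and exon length 1 was higher (Ppfia2, 2%) and 2 lower (Ppfia3 and Rimbp2, 4%). Both alternatives were chosen after seeing the data. The shares of all genes after centring were not computed, so whether the list stands apart after centring cannot be read. The genes named here were picked after their values were seen. The median of the list was 0.02 in WT and 0.04 in the BDNF het-Met mice.

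Some markers of the cells in the tissue had an uncorrected p below 0.05 with limma in the same comparisons. No marker passed an adjusted p of 0.05 in either genotype. Of all genes, 3.83% had an uncorrected p below 0.05 with limma in WT mice. In BDNF het-Met mice 13.2% did, 6.55% higher and 6.64% lower under CORT. The marker lists are short, and their counts were not tested against these shares. Of 6 neuron markers, 3 had a p below 0.05 and were higher in BDNF het-Met mice and 0 were lower, with log2 fold changes from -0.07 to 0.24 and a median of 0.09 (WT 0.07). Map2 and Nefm were higher in both genotypes (0.10 and 0.22 in WT, 0.10 and 0.24 in the others). Dentate granule cell markers, which check the labelled tissue, were present from 5.29 to 7.41 log2 CPM, and all 5 had log2 fold changes above 0 in both genotypes (medians 0.11 and 0.19). All 6 microglial markers were lower in both genotypes (-0.33 to -0.10 in WT, -0.61 to -0.35 in BDNF het-Met mice), with 0 and 4 of them at a p below 0.05. Of 6 astrocyte markers 4 were lower and 1 higher at that threshold in BDNF het-Met mice (median -0.27), and of 6 oligodendrocyte markers 3 were lower (median -0.35). In WT mice these medians were -0.07 and -0.09, with 1 astrocyte marker lower and 1 higher at that threshold. These were Aqp4 and Aldh1l1, called in both genotypes. Aqp4 was lower (-0.52 in WT, -0.79 in BDNF het-Met mice) and Aldh1l1 higher (0.25 and 0.19). Averaged over genotypes, Aqp4 had an adjusted p of 0.0431 from the limma values. Interneuron markers had medians of 0.06 and 0.005, endothelial ones 0.005 and 0.08, thalamic ones -0.11 and -0.16, and striatal ones 0.0002 and -0.44. Of these 4 lists 0 markers had a p below 0.05 in WT mice. In BDNF het-Met mice 2 of 7 interneuron markers did, Gad1 higher (0.12) and Npy lower (-0.30). So did 1 thalamic marker, which was lower, and 0 endothelial and 0 striatal ones. Choroid plexus markers had medians of -1.49 in WT and 0.14 in the BDNF het-Met mice, with Ttr at 9.44 log2 CPM and 0 of 6 below a p of 0.05. Their SEs ran from 0.94 to 2.32 in WT and from 0.86 to 2.08 in BDNF het-Met mice. The lowest mean level of any marker was 0.94 log2 CPM, for the striatal marker Adora2a. The part of the markers in the values of the release genes was not tested.

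Exon length moved weakly with the CORT effect. Among the 64 genes, which are not independent, exon length and the log2 fold change had a Spearman rho of 0.23 in WT and 0.29 in the BDNF het-Met mice. Over all 17557 annotated genes rho was 0.13 and 0.17, and over 10261 protein-coding genes above 3 log2 CPM 0.25 and 0.31. Stxbp5 has 16513 exon bases, Stxbp5l 8521, Sv2b 8381 and Syt12 5539, all higher in BDNF het-Met mice. Of the lower genes Stx1a has 2666 and Syt15 5164, the latter above the median of the 64 (4945). The part of exon length in these calls was not tested beyond the centring described above, under which Rims3 gained a call and Stxbp5l, Stx1a, Syt12 and Syt15 kept an uncorrected p below 0.05 in BDNF het-Met mice.

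**Figure D5:**
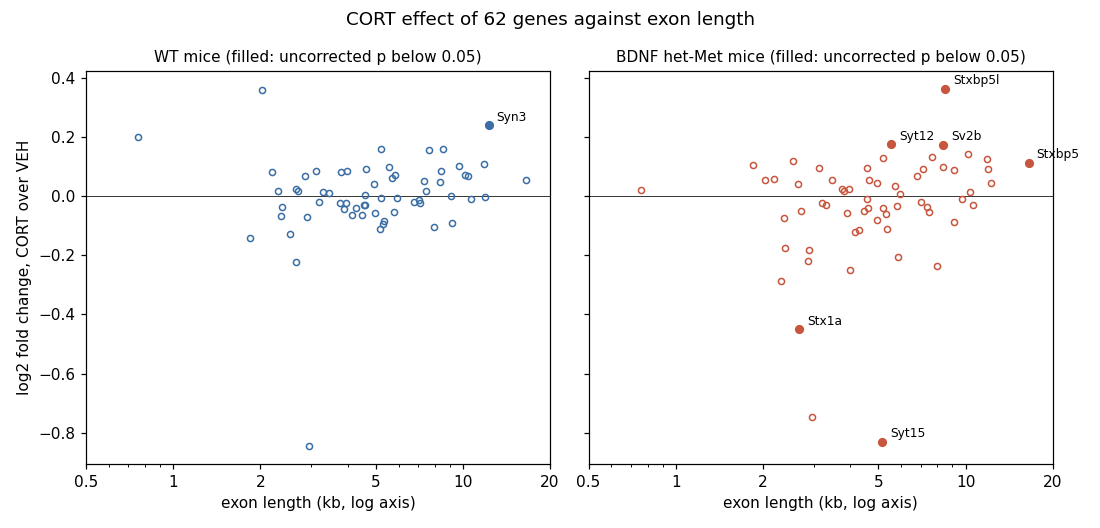
CORT log2 fold change (y axis) against exon length in kb (x axis, log scale) for 62 of the 64 genes in WT and BDNF het-Met mice, 1 point per gene, filled and named where the uncorrected p is below 0.05. The higher members called in BDNF het-Met mice lie from 5539 exon bases (Syt12) upward. Of the lower ones, Stx1a lies at 2666 and Syt15 at 5164.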

How the data were processed

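Per the labels, stranded libraries were read as single ends of 75 bp. The authors used STAR for alignment to mm10, featureCounts for gene counts and limma-voom for the fit. For their versions, low-expression filter and strand setting, the sources used here give nothing. The deposited tables, 1 per genotype with 17564 genes each, hold log2 values (mean expression, log2 fold change, standard error), p-values (uncorrected and Benjamini-Hochberg adjusted) and scores (moderated t, F). These are the authors' own comparisons. They were used because no other values describe these genes here.

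By its name the fold change column is VEH minus CORT, and the sign was turned. The SE printed is the fold change over the moderated t. The average over genotypes and the difference were computed at 10.9 total degrees of freedom in scipy 1.17.1. Their formulas were run on simulated data with 3 libraries per group and an ordinary SE. The moderated SE and a fit with a library missing were not simulated. Coordinates and exon lengths came from GENCODE M21 (64 of 64 genes matched), and shared sequence from blastn 2.17.0+. Full statistics go to genes with p below 0.05 and the 2 most abundant per kb of each role. The genes and lists were chosen with earlier results of these data known. Alternatives were other p and fold thresholds, the ordinary SE, centring, a level minimum and a narrower membership. Where nothing says that pools came from separate cohorts, p-values measure the spread between libraries. Values of 2 of the 64 genes are not reported singly here or plotted, though counts and medians over the list hold them.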

Additional observations from a re-analysis of the deposited data

Results flagged for a closer look

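The CORT effect differed between genotypes at an uncorrected p below 0.05 for Syt15, with BDNF het-Met minus WT at -0.72 (log2, 95% interval -1.31 to -0.12, adjusted p = 0.9999 from the limma values). Its level was -1.95 log2 CPM per kb. For Vamp7 the difference was 0.25 (95% interval 0.03 to 0.46, adjusted p = 0.9999 from the limma values), from effects of -0.13 (WT) and 0.12 (BDNF het-Met). Among all genes 2.41% had such a p, beside 3.12% of the 64.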

How the results depend on the processing

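At an uncorrected p below 0.01 the counts of 1 in WT mice, 7 averaged over genotypes and 2 for the difference became 0, 4 and 0. With a fold change above 1.5 the 2 DEGs of BDNF het-Met mice became 1. The other counts stayed within 1.5 times of the values reported under the alternatives run. The medians stayed within the median SE of a gene (0.078 in WT, 0.070 in BDNF het-Met mice), a limit far wider than the medians. Their sign did not hold. The WT median went from 0.0069 to -0.0011 after centring by expression. That of BDNF het-Met mice went from -0.0012 to 0.0060 with the level minimum. Single p above 0.05 were found with the ordinary SE for Syn3 in WT mice (0.0588), after centring by expression quintile for Stxbp5 in BDNF het-Met mice (0.109) and averaged (0.121) and Sv2a averaged (0.136), and after centring by expression and exon length, chosen after seeing the data, for Syn3 (0.0553), Sv2b (0.106 and 0.125 averaged) and Stxbp5 (0.432 and 0.513 averaged). Other genes passed 0.05 in their place: Sv2a in WT mice with the ordinary SE (0.0161) and after centring by expression and exon length (0.0464), Syt5 in BDNF het-Met mice (0.0290) and Syn3 averaged (0.0364) after centring by expression, and Rims3 in BDNF het-Met mice (0.0287) and averaged (0.0306) after centring by both. With the ordinary SE the averaged count rose by 1, to 8. The cause was not tested. No call reversed among the genes named. No paired analysis was possible because the tables hold fitted values and none per library, which also kept any library from being left out. Depth per library is unknown, so the SE of each gene is the only measure of precision.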
